A study of Triticum aestivum with 6 samples.

Results

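Crown RNA of synthetic hexaploid wheat contained 96 probes whose signal was raised in 1 grass-clump dwarf line, Ldn/KU-2025, and was not raised in the other dwarf line, crt/KU-2025. The 96 probes are 0.254% of the 37826 gene probes on the array. They were chosen on the scaled signals of all 6 arrays: the lower Ldn/KU-2025 array had to reach at least 2 times the higher wild-type (WT) array and a signal of at least 60, and neither crt/KU-2025 array could exceed the higher WT array. A further condition, that both crt/KU-2025 arrays lie under 0.5 times the lower Ldn/KU-2025 array, removed 0 probes. Because these limits used the signals of all 3 lines, the levels in the lines are given below as a description and were not tested.

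Synthetic hexaploid wheat is made by crossing tetraploid wheat with the wild goatgrass Aegilops tauschii and recovering plants with the genomes of both. WT was the synthetic line from the durum cultivar Langdon (Ldn) and Ae. tauschii KU-2059. Ldn/KU-2025 had the same tetraploid parent and another Ae. tauschii parent, whereas crt/KU-2025 had that second Ae. tauschii parent and a tetraploid parent of subspecies carthlicum, T. carthlicum in the labels. Plants of every line were 8 weeks old and came from 24°C with 18 h light and 6 h dark, and each line was measured on 2 arrays, which the methods describe as independent experiments. The sources used here do not say how many plants entered a sample, and each line is a single cross combination.

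The crown is the base of the shoot, where the shoot apical meristem and the tiller buds sit. Type II necrosis is a form of hybrid weakness that needs the gene Net1 from tetraploid wheat together with Net2 from Ae. tauschii. Plants that carry both are necrotic in the cold and, at normal temperature, can become grass-clump dwarfs, which are short and have many tillers. Both dwarf lines therefore share a growth form and an Ae. tauschii parent, and differ in the tetraploid parent. A microarray spot reports RNA from the whole crown sample, so that fewer cells of a type and less RNA per cell cannot be told apart. The crt/KU-2025 line has another tetraploid parent, and whether each probe matches its transcripts equally well was not tested.

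The 6 arrays had 75.1% to 77.6% of probes well above background, by the flag that the scanner software sets for each spot. WT and Ldn/KU-2025 were hybridized on 1 slide and crt/KU-2025 on another, so that slide and line cannot be told apart for crt/KU-2025. The crt/KU-2025 arrays differed from each other more than those of the other lines, with a median difference of 1.15-fold over all probes, against 1.05-fold in WT and 1.05-fold in Ldn/KU-2025. In particular, the summed signal of 39 leaf probes (chlorophyll-binding proteins, photosystem subunits, ribulose bisphosphate carboxylase and its activase) was 14976 and 14423 in WT, 62972 and 66309 in Ldn/KU-2025, and 24213 and 269294 in crt/KU-2025. Of these 39 probes, 33 were above background on all arrays, 5 reached at least 2 times the higher WT array on crt/KU-2025 replicate 1, and 39 did so on replicate 2. None of the leaf probes was among the 96 probes described here (0 of 39), which the conditions fix, since all 39 exceeded WT on crt/KU-2025 replicate 2. The part that leaf tissue has in the rise in Ldn/KU-2025 was not tested. Root peroxidase, with 2 probes, summed to 55.1 and 26.1 in WT, 682.9 and 745.8 in Ldn/KU-2025 and 3428 and 3228 in crt/KU-2025. The conditions likewise excluded these probes, and 0 were among the 96. The study had listed the leaf and root probes for their rise on these arrays, so that the rise itself is no independent evidence. There were also 3 probes for MADS-box genes that the paper describes as flowering promoters. Of these, wheat0130Contig14728 was above background on 6 arrays, and the others were above background on the 4 WT and Ldn/KU-2025 arrays only. For instance, rwhfl48m16 gave 678.2 and 790.7 in WT, 594.1 and 581.6 in Ldn/KU-2025, and 5.9 and 10.8 in crt/KU-2025. The paper gives a strongly lowered array ratio for this probe in Ldn/KU-2025, whereas on these arrays the low signals were those of crt/KU-2025. By qRT-PCR on younger plants, the paper also reports lower transcript levels of these MADS-box genes in both dwarf lines. That measurement was not examined here.

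By the conditions used here, a rise limited to Ldn/KU-2025 was the smaller pattern among the probes raised in this line. In total, 873 probes met the conditions on Ldn/KU-2025 and WT, whatever crt/KU-2025 did. On 518 of the 873 (59.3%) both crt/KU-2025 arrays were at least 2 times the higher WT array, on 259 they lay in between, and the 96 probes with crt/KU-2025 at or below WT made up 11.0%. Over all probes of the array, 44.6% had crt/KU-2025 at or below WT by the same measure. The 873 probes were chosen for a low WT signal relative to Ldn/KU-2025, and crt/KU-2025 was set against the same WT arrays. Nothing is therefore read from the difference between 11.0% and 44.6%. Where 1 crt/KU-2025 array could exceed WT, the conditions gave 208 probes. The number of probes found depended on single arrays of the dwarf lines. Leaving out an Ldn/KU-2025 array gave 152 probes (replicate 1) or 210 (replicate 2). Leaving out a crt/KU-2025 array gave 105 (replicate 1) or 199 (replicate 2). Each of these sets held all 96, which is fixed, since leaving out an array of a dwarf line can only loosen the conditions. Leaving out a WT array gave 112 probes (replicate 1, 93 of them among the 96) or 118 (replicate 2, 95 of them). After normexp background correction and quantile normalization of the raw spot signals the conditions gave 42 probes, 36 of them among the 96.

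Most of the 96 probes were close to the limit for the rise. Of these, 88 were well above background on both WT and both Ldn/KU-2025 arrays, so that the size of the rise was measured. For the 88 probes, the ratio of the lower Ldn/KU-2025 array to the higher WT array ranged from 2.002 to 6.502 with a median of 2.33. It was under 2.5 for 56 of them, at least 3 for 11 and at least 4 for 1. In terms of mean levels, Ldn/KU-2025 was 2.04-fold to 6.68-fold above WT at these probes, with a median of 2.62-fold. The remaining 8 probes were not above background on both WT arrays. For them only a bound of the rise against a detection floor, explained below, is given, between 2.52-fold and 5.31-fold. The replicate arrays of Ldn/KU-2025 differed by a median of 1.07-fold and at most 1.45-fold over the 96 probes, those of WT by a median of 1.07-fold and at most 2.24-fold, and those of crt/KU-2025 by a median of 1.31-fold and at most 8.11-fold. Both Ldn/KU-2025 arrays lay above both WT arrays for all 96 probes, which the conditions fix, and for 35.0% of all probes.

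Mean Ldn/KU-2025 signals ranged from 70.4 to 63163, so that the probes covered weak and very strong spots alike. Mean signals in WT were under 100 for 28 probes, between 100 and 1000 for 49 and at least 1000 for 19, with a median of 262. In Ldn/KU-2025, 1 probe was under 100, 49 were between 100 and 1000 and 46 were at least 1000, with a median of 860. In crt/KU-2025 the median was 54.6.

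The conditions placed crt/KU-2025 at or below WT, and a part of the probes was far below it. Among the 57 probes above background on all 6 arrays, crt/KU-2025 was less than 1.5-fold below WT for 16 and at least 3-fold below for 17. A further 31 were above background in WT but not on both crt/KU-2025 arrays, and for these the fold is a lower bound, which reached 3 for 18 probes. Hence WT was at least 3-fold above crt/KU-2025, measured or as a bound, for 35 of the 88 probes above background in WT (39.8%), and at least 10-fold for 8 (9.09%). The same was found for 13.1% and 3.99% of all probes above background in WT. Only 44.6% of all probes had the higher crt/KU-2025 array at or below the higher WT array, whereas all 88 had to. Higher shares among the 88 are therefore partly built in, and nothing is read from the difference. The median over the 88 probes was 2.28-fold, with bounds taken as they are. The signals as given, including those at background, had a median log2 ratio to WT of -1.51 on crt/KU-2025 replicate 1 and -1.36 on replicate 2. For 55 of the 96 probes, replicate 1 of crt/KU-2025 was above replicate 2.

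On the log2 scale and with signals at background taken as given, the median of the 96 probes was 1.41 for Ldn/KU-2025 over WT, -1.56 for crt/KU-2025 over WT and -3.02 for crt/KU-2025 over Ldn/KU-2025. The medians of all probes were -0.02, 0.10 and 0.11. With probes that were not above background set to their bound where there is one, the 3 medians of the 96 probes were 1.40, -1.19 and -2.55. Scaling to the 75th percentile moved the median of all probes for crt/KU-2025 over WT from 0.10 to -0.11, and that of the 96 probes from -1.56 to -1.76.

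Detection divided the probes into groups. All 96 were well above background on both Ldn/KU-2025 arrays, and 57 were so on all 6 arrays. A further 9 were above background on both WT arrays and on 1 crt/KU-2025 array, and 22 on both WT arrays and on 0 crt/KU-2025 arrays. The remaining 8 were above background on 1 WT array (3 probes) or on 0 WT arrays (5 probes), in each case with 0 crt/KU-2025 arrays.

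**Figure D1:**
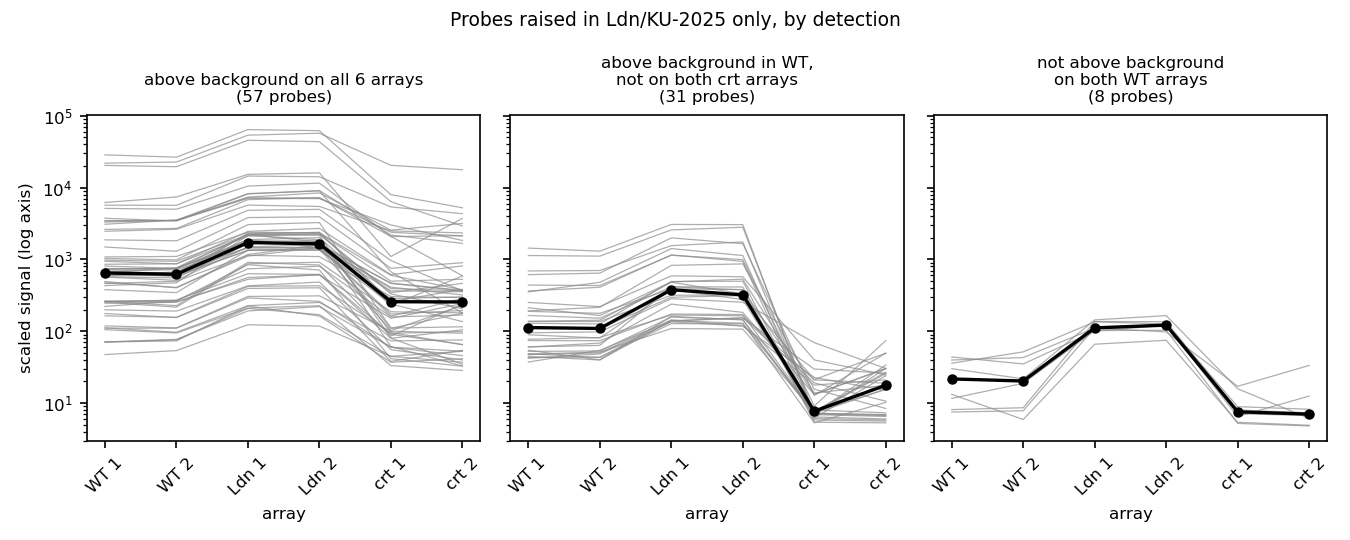
Scaled signal (log axis) of the 96 probes on the 6 arrays, in panels by detection, with grey lines for single probes and black points for the median of the panel. The 57 probes above background on all arrays, the 31 above background in WT but not on both crt/KU-2025 arrays, and the 8 not above background on both WT arrays all peak on the Ldn/KU-2025 arrays, which the choice of probes fixes, and differ in the depth of the crt/KU-2025 signals.

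The 57 probes measured on all arrays were 2.04-fold to 4.47-fold higher in Ldn/KU-2025 than in WT, with a median of 2.496-fold. In crt/KU-2025 they were a median of 2.004-fold below WT. The largest gap between WT and crt/KU-2025 in this group was 18.1-fold, at rwhr11m05.

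Of the 22 probes above background in WT and on 0 crt/KU-2025 arrays, mean signals ranged from 42.2 to 1370 with a median of 132 in WT, from 108 to 3060 with a median of 390 in Ldn/KU-2025, and from 5.35 to 27.9 with a median of 11.5 in crt/KU-2025. They made up 25.0% of the 88 probes that were above background on both WT arrays, whereas 4.26% of the 27885 probes of the array above background on both WT arrays were above background on 0 crt/KU-2025 arrays. The conditions favour this pattern: it was found for 22 (3.01%) of the 730 raised probes above background on both WT arrays, which are the same 22. The lower bound of a change, given wherever the dimmer line was not above background on both arrays, sets the brighter line against a detection floor in the dimmer one. On an array this floor is the weakest signal that any detected probe had there, 23.9 to 27.9, or the signal of the probe itself where that was higher. Some probes were not above background at signals over the weakest detected one, such as wheat0130Contig1314 with 29.7 on crt/KU-2025 replicate 1. All bounds and all values given as at least a fold therefore hold for this floor only, and a higher floor would make them smaller. For the 31 probes with such a bound, WT was at least 1.56-fold to 54.7-fold above crt/KU-2025, with a median bound of 3.39-fold, and the bound reached 10 for 6.

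The 3 probes with the largest bounds were picked after their values were seen. MUGEST2003_23lib_Contig2246_634 gave 1437 and 1302 in WT, 3070 and 3050 in Ldn/KU-2025, and 6.4 and 6.0 in crt/KU-2025, so that WT was at least 54.7-fold and Ldn/KU-2025 at least 122-fold above crt/KU-2025. wheat0130Contig14105 gave 1133 and 1111 in WT, 2576 and 2805 in Ldn/KU-2025, and 7.2 and 15.5 in crt/KU-2025, and WT was at least 44.9-fold above crt/KU-2025. wheat0130Contig11284 gave 690.6 and 700.5 in WT, 1555 and 1750 in Ldn/KU-2025, and 7.2 and 6.8 in crt/KU-2025, with WT at least 27.8-fold higher. The 3 lines did not overlap at any of these probes, and none of them has a description here.

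Functions were known for few of the probes. The study listed 362 probes as up-regulated in Ldn/KU-2025, which it had chosen on these same arrays, with a description from sequence similarity. Of the 96 probes, 16 were in that list, 9 of them with a named protein and 7 without. Of the 80 probes outside the list, 75 were above background in WT and 2.04-fold to 4.47-fold higher in Ldn/KU-2025, 8 of them at least 3-fold, and 5 had a bound of 2.52-fold to 5.31-fold. The study's lists of probes that are lower in crt/KU-2025 were not used here, so that these 80 probes are left without a description. The probe names could be matched to 0 RefSeq wheat genes, and no probe sequence was used.

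The 9 named proteins fall into auxin conjugate enzymes, a sex determination protein, transcription factors, cell wall proteins, and enzymes of specialized metabolism and detoxification. Their signals, and those of the most strongly raised and of the brightest probes, are given below for each array. Normexp correction, which here adds an offset of 50 to every background-corrected signal, gave a ratio to WT more than 1.5 times smaller than the value or bound stated for 9 of these 21 probes, and its ratio is given beside each of them.

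**Figure D2:**
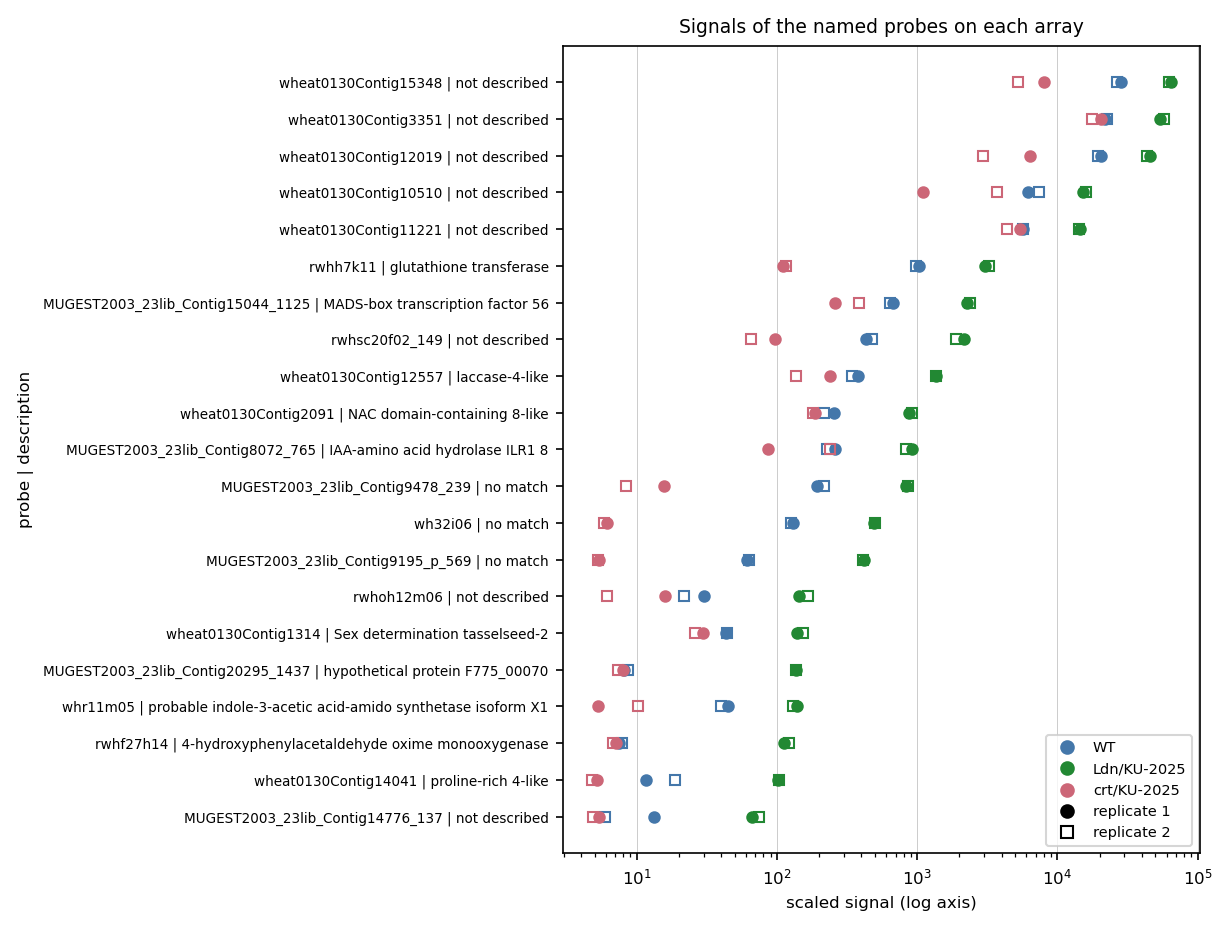
Scaled signal (log axis) on each of the 6 arrays of 21 probes, which are those with a named protein, the 10 with the largest ratio of Ldn/KU-2025 to WT and the 5 with the highest level, ordered by their level in Ldn/KU-2025 (filled circles, replicate 1; open squares, replicate 2). The lowest probe lies between 66.0 and 74.7 in Ldn/KU-2025 and the highest between 62111 and 64214, and the crt/KU-2025 points lie from next to the WT points to over 10-fold below them.

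A pair of the probes encoded enzymes that act on auxin conjugates. Auxin (indole-3-acetic acid, IAA) can be stored or inactivated by attachment to an amino acid. IAA-amido synthetases make the conjugates, and IAA-amino acid hydrolases of the ILR1 type release the free hormone. The hydrolase probe MUGEST2003_23lib_Contig8072_765 (ILR1 8) gave 260.5 and 227.2 in WT, 912.6 and 834.6 in Ldn/KU-2025, and 85.6 and 237.6 in crt/KU-2025. It was 3.59-fold higher in Ldn/KU-2025 than in WT. The crt/KU-2025 arrays differed by 2.78-fold from each other, and replicate 2 lay between both WT arrays. The synthetase probe whr11m05 gave 44.6 and 39.8 in WT, 139.6 and 129.6 in Ldn/KU-2025, and 5.3 and 10.2 in crt/KU-2025. It was 3.19-fold higher in Ldn/KU-2025 than in WT, or 1.69-fold after normexp correction, and the 3 lines did not overlap. The crt/KU-2025 signals were not above background, so that Ldn/KU-2025 was at least 5.38-fold and WT at least 1.69-fold above them. Thus the probes of the conjugating and of the hydrolysing enzyme were both higher in Ldn/KU-2025.

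A further probe, wheat0130Contig1314, matched Sex determination tasselseed-2, a short-chain dehydrogenase that in maize stops pistil development in the tassel. It was placed in the hormone class by keyword, although its description names no hormone. It gave 43.0 and 43.6 in WT, 138.4 and 152.9 in Ldn/KU-2025, and 29.7 and 26.1 in crt/KU-2025. Ldn/KU-2025 was 3.36-fold above WT, or 1.53-fold after normexp correction, and crt/KU-2025 was not above background.

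The remaining hormone probes of the study's list did the opposite in crt/KU-2025. The list held 7 probes of this class, and the 4 that were not among the 96 had both crt/KU-2025 arrays at least 2 times the higher WT array. Of these, 3 encoded glucosyltransferases, which inactivate cytokinins by adding a sugar. Cytokinin-O-glucosyltransferase 1 (wheat0130Contig2583) gave 13.8 and 7.7 in WT, 168.5 and 154.9 in Ldn/KU-2025, and 1448 and 2009 in crt/KU-2025. Cytokinin-O-glucosyltransferase 2 (MUGEST2003_23lib_Contig5402_324) gave 653.7 and 657.6 in WT, 2170 and 2201 in Ldn/KU-2025, and 1345 and 1800 in crt/KU-2025. The cis-zeatin O-glucosyltransferase probe (MUGEST2003_23lib_Contig19372_919) gave 664.2 and 625.8 in WT, 1957 and 2017 in Ldn/KU-2025, and 3500 and 4312 in crt/KU-2025. The listed hormone probes among the 96, for auxin conjugates and tasselseed, had to lie at or below the higher WT array in crt/KU-2025. The others, 3 cytokinin probes and an esterase probe of the KAI2 type, lay above it. This split follows from the choice of probes, and nothing is read from it.

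Transcription factors contributed a MADS-box and a NAC probe. MADS-box proteins control flowering time and organ identity, and MADS56 of rice is a relative of the flowering gene SOC1. The probe for MADS-box transcription factor 56, MUGEST2003_23lib_Contig15044_1125, gave 674.7 and 643.2 in WT, 2265 and 2385 in Ldn/KU-2025, and 257.6 and 382.5 in crt/KU-2025. Ldn/KU-2025 was 3.53-fold above WT and WT 2.10-fold above crt/KU-2025, and no arrays of different lines overlapped. NAC proteins are plant transcription factors of development and stress. The NAC domain-containing 8-like probe wheat0130Contig2091 gave 253.1 and 216.5 in WT, 870.5 and 912.0 in Ldn/KU-2025, and 186.6 and 180.2 in crt/KU-2025. Ldn/KU-2025 was 3.81-fold above WT, and crt/KU-2025 only 1.28-fold below WT. The list held 10 transcription factor probes, of which 7 had both crt/KU-2025 arrays at least 2 times the higher WT array. Another NAC probe among them, NAC transcription factor 29-like (MUGEST2003_23lib_Contig2815_329), gave 266.8 and 240.9 in WT, 912.3 and 963.2 in Ldn/KU-2025, and 2813 and 2785 in crt/KU-2025. In crt/KU-2025, 1 NAC probe was thus below its WT level and the other above it.

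The cell wall was represented by a laccase and a proline-rich protein. Laccases oxidize lignin precursors in the cell wall. The laccase-4-like probe wheat0130Contig12557 gave 379.1 and 345.0 in WT, 1351 and 1361 in Ldn/KU-2025, and 239.0 and 136.3 in crt/KU-2025, so that Ldn/KU-2025 was 3.75-fold above WT and WT 2.004-fold above crt/KU-2025. Laccase-12 13 (wheat0130Contig7263), which was listed but is not among the 96, gave 41.9 and 42.1 in WT, 126.5 and 136.8 in Ldn/KU-2025, and 262.8 and 482.1 in crt/KU-2025. Proline-rich proteins are structural components of the wall. The proline-rich 4-like probe wheat0130Contig14041 gave 11.6 and 18.8 in WT, 102.2 and 103.1 in Ldn/KU-2025, and 5.2 and 4.8 in crt/KU-2025. It was above background in Ldn/KU-2025 only, at least 3.71-fold over WT and at least 4.11-fold over crt/KU-2025, and 1.74-fold over WT after normexp correction. The list held 27 cell wall probes, 20 of which had both crt/KU-2025 arrays at least 2 times the higher WT array.

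The last named proteins were a P450 enzyme and a glutathione transferase. In sorghum, 4-hydroxyphenylacetaldehyde oxime monooxygenase is a cytochrome P450 that makes the precursor of the cyanogenic glucoside dhurrin. The probe rwhf27h14 with this description gave 7.5 and 7.8 in WT, 112.1 and 121.8 in Ldn/KU-2025, and 7.1 and 6.7 in crt/KU-2025. Only the Ldn/KU-2025 arrays were above background, at least 4.23-fold over WT and at least 4.68-fold over crt/KU-2025. After normexp correction the ratio to WT was 1.85. Glutathione transferases attach glutathione to reactive compounds. The probe rwhh7k11 gave 1031 and 985.1 in WT, 3054 and 3259 in Ldn/KU-2025, and 110.5 and 115.4 in crt/KU-2025. It was 3.13-fold higher in Ldn/KU-2025 than in WT. Of the 9 probes with a named protein, it had the largest measured gap between WT and crt/KU-2025, 8.93-fold. The second probe of the synthetase clone, rwhr11m05, which has no description here, had a larger measured gap of 18.1-fold. In contrast, the listed glutathione S-transferase probe MUGEST2003_23lib_Contig4023_642, with 5.6 and 8.3 in WT and 119.7 and 139.3 in Ldn/KU-2025, gave 422.7 and 338.1 in crt/KU-2025.

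Over the whole list of 362 probes, 20 had crt/KU-2025 at or below WT and 235 had both crt/KU-2025 arrays at least 2 times the higher WT array. The 4 of the 20 that are not among the 96 had Ldn/KU-2025 signals of 32.8 to 53.7, under the signal limit of 60. Some keyword classes had no probe among the 96, namely photosynthesis (0 of 44), proteases and their inhibitors (0 of 19), carbon metabolism (0 of 17), kinases and signalling (0 of 16), transport (0 of 9), heat shock and chaperones (0 of 5), ubiquitin and protein turnover (0 of 5), disease resistance (0 of 4) and mobile elements (0 of 3). Since only 16 of the 362 listed probes were among the 96, a count of 0 in a class is not read as a trait of the 96. The position of crt/KU-2025 for the photosynthesis class depended on the array. On replicate 1, 26 of the 44 probes were at or below the higher WT array, and on replicate 2, 0 were. All 44 reached at least 2 times the higher WT array on replicate 2, so that the conditions left out the whole class. Of the other 318 listed probes, 47 on replicate 1 and 25 on replicate 2 were at or below the higher WT array.

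**Figure D3:**
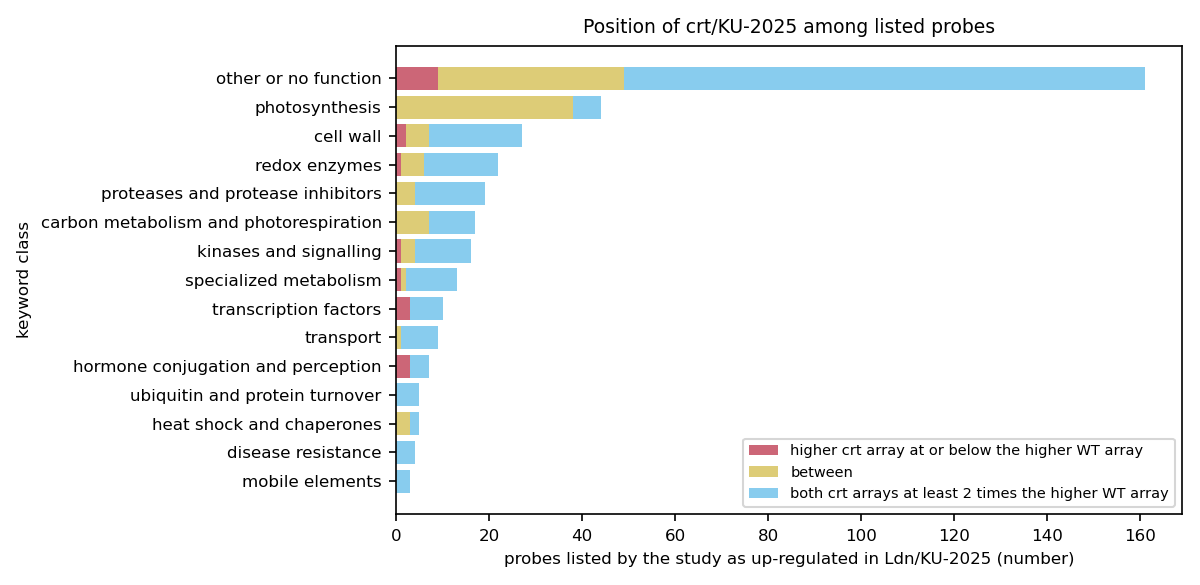
Number of probes that the study listed as up-regulated in Ldn/KU-2025, by keyword class, with colors for the position of both crt/KU-2025 arrays relative to WT. Red segments (20 of 362 probes in all) mark crt/KU-2025 at or below WT, and appear in the classes cell wall, redox enzymes, kinases, specialized metabolism, transcription factors, hormones and other.

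Among the 10 probes with the largest ratio to WT by the signals as given, 7 had no named protein. Where WT was not above background these ratios have no order. The largest rise that was measured in both lines belonged to MUGEST2003_23lib_Contig9195_p_569, with 60.6 and 63.5 in WT, 415.6 and 412.9 in Ldn/KU-2025, and 5.4 and 5.3 in crt/KU-2025. It was 6.68-fold higher in Ldn/KU-2025 than in WT, and 2.90-fold after normexp correction. MUGEST2003_23lib_Contig20295_1437, a hypothetical protein, gave 8.1 and 8.6 in WT, 136.7 and 135.6 in Ldn/KU-2025, and 8.0 and 7.3 in crt/KU-2025. It was above background in Ldn/KU-2025 only, at least 4.92-fold over WT and at least 5.45-fold over crt/KU-2025, and 2.11-fold over WT after normexp correction.

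A pair of probes was weak. MUGEST2003_23lib_Contig14776_137 gave 13.2 and 5.9 in WT, 66.0 and 74.7 in Ldn/KU-2025, and 5.4 and 4.9 in crt/KU-2025, with Ldn/KU-2025 at least 2.54-fold over WT, and 1.45-fold after normexp correction. The probe rwhoh12m06 gave 30.1 and 21.7 in WT, 143.8 and 164.9 in Ldn/KU-2025, and 15.8 and 6.1 in crt/KU-2025, with Ldn/KU-2025 at least 5.31-fold over WT, and 1.94-fold after normexp correction. Neither was above background on any WT or crt/KU-2025 array.

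The other three were clearly above background in WT. rwhsc20f02_149 gave 431.7 and 472.7 in WT, 2169 and 1878 in Ldn/KU-2025, and 96.0 and 64.7 in crt/KU-2025, a rise of 4.47-fold over WT. MUGEST2003_23lib_Contig9478_239 gave 192.0 and 215.4 in WT, 826.4 and 865.7 in Ldn/KU-2025, and 15.6 and 8.4 in crt/KU-2025. wh32i06 gave 129.1 and 126.1 in WT, 492.3 and 496.9 in Ldn/KU-2025, and 6.1 and 5.8 in crt/KU-2025. MUGEST2003_23lib_Contig9478_239 and wh32i06 were 4.16-fold and 3.88-fold above WT in Ldn/KU-2025 (wh32i06 2.44-fold after normexp correction), and WT was at least 8.14-fold and at least 5.11-fold above crt/KU-2025.

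None of the 5 brightest probes had a description, and the ratio of each to WT was under the median of 2.62-fold. The brightest, wheat0130Contig15348, gave 28581 and 26542 in WT, 64214 and 62111 in Ldn/KU-2025, and 7984 and 5237 in crt/KU-2025, 2.29-fold up in Ldn/KU-2025 and 4.26-fold down in crt/KU-2025 relative to WT. wheat0130Contig3351 gave 21907 and 22708 in WT, 53728 and 57214 in Ldn/KU-2025, and 20432 and 17740 in crt/KU-2025, so that crt/KU-2025 was within 1.17-fold of WT. wheat0130Contig12019 gave 20371 and 19542 in WT, 45637 and 43625 in Ldn/KU-2025, and 6375 and 2925 in crt/KU-2025. wheat0130Contig15348 and wheat0130Contig12019 had a crt/KU-2025 level far under WT, and wheat0130Contig3351 had nearly the WT level.

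The other two bright probes split in the same way. wheat0130Contig10510 gave 6195 and 7414 in WT, 15284 and 16032 in Ldn/KU-2025, and 1098 and 3721 in crt/KU-2025, where the replicates differed by 3.39-fold. wheat0130Contig11221 gave 5690 and 5667 in WT, 14488 and 14155 in Ldn/KU-2025, and 5378 and 4335 in crt/KU-2025, which was 1.18-fold below WT.

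The crt/KU-2025 arrays were at least 2-fold apart for 23 of the 96 probes. Of these, 9 were above background on both crt/KU-2025 arrays, 5 with the higher signal on replicate 1. The widest differences among them were at rwhdl15l01, with 672.4 and 179.9 in crt/KU-2025, and wheat0130Contig679, with 2093 and 593.0. Their WT arrays gave 3089 and 3530, and 2620 and 2702, respectively. These probes were picked after their values were seen.

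For 4 of the 96 probes, the crt/KU-2025 and WT arrays overlapped. Besides the ILR1 8 probe described above they were whsh_allContig1057 (657.2 and 585.3 in WT, 599.9 and 377.7 in crt/KU-2025), MUGEST2003_23lib_Contig2147_932 (473.6 and 407.2 in WT, 411.1 and 319.8 in crt/KU-2025) and wheat0130Contig5689 (2466 and 2625 in WT, 2495 and 2341 in crt/KU-2025). For the other 92 both crt/KU-2025 arrays lay under both WT arrays. Over all probes, 39.1% did so, and 44.6% had the higher crt/KU-2025 array at or below the higher WT array. The conditions required the latter of all 96 probes, so that the count is largely built in and nothing is read from it.

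Some clones and contigs were represented by more than 1 probe, so that the pattern could be looked at with a second probe. By the stems of their names, 14 of the 96 probes, from 12 clones or contigs, had at least 1 further probe. Whether the probes of a clone target the same transcript and strand is not given in the sources used here. For 2 clones both probes were among the 96, so that their shared pattern is fixed by the choice of probes. For clone r11m05, the synthetase probe whr11m05 gave the values above and rwhr11m05 gave 975.8 and 941.5 in WT, 2212 and 2163 in Ldn/KU-2025, and 80.2 and 34.8 in crt/KU-2025. The rise over WT was 3.19-fold and 2.28-fold with the 2 probes. For clone sc20f02, rwhsc20f02_149 was 4.47-fold and whsc20f02_303 was 2.33-fold above WT in Ldn/KU-2025. whsc20f02_303 gave 461.7 and 497.1 in WT, 1140 and 1095 in Ldn/KU-2025, and 303.6 and 294.4 in crt/KU-2025.

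The other 11 probes of these clones and contigs were not among the 96, and 7 of them were above background on 0 arrays. A further 2 were detected on some arrays and did not show the pattern. whkp14b04_746, above background on 4 arrays, gave 39.7 and 12.3 in WT, 32.9 and 31.3 in Ldn/KU-2025, and 64.4 and 19.6 in crt/KU-2025. whoh12m06, above background on 2 arrays, gave 25.8 and 21.9 in WT, 32.0 and 24.3 in Ldn/KU-2025, and 27.0 and 38.0 in crt/KU-2025. WT and Ldn/KU-2025 overlapped at both. The last 2 were above background on both WT and both Ldn/KU-2025 arrays. For clone f5f17, rwhf5f17 gave 567.9 and 511.8 in WT, 1495 and 1594 in Ldn/KU-2025, and 468.0 and 370.9 in crt/KU-2025, and its partner whf5f17 gave 448.8 and 362.9, 944.2 and 730.1, and 469.7 and 391.6 in the same order. For clone fl53d24, rwhfl53d24 gave 189.2 and 177.5 in WT, 389.0 and 380.1 in Ldn/KU-2025, and 13.2 and 30.2 in crt/KU-2025, and its partner whfl53d24 gave 106.2 and 91.7, 155.6 and 139.0, and 58.9 and 51.7. These partners had their highest signals in Ldn/KU-2025, with rises of 2.06-fold and 1.49-fold over WT. The partner of clone f5f17 was 1.06-fold above WT in crt/KU-2025.

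**Figure D4:**
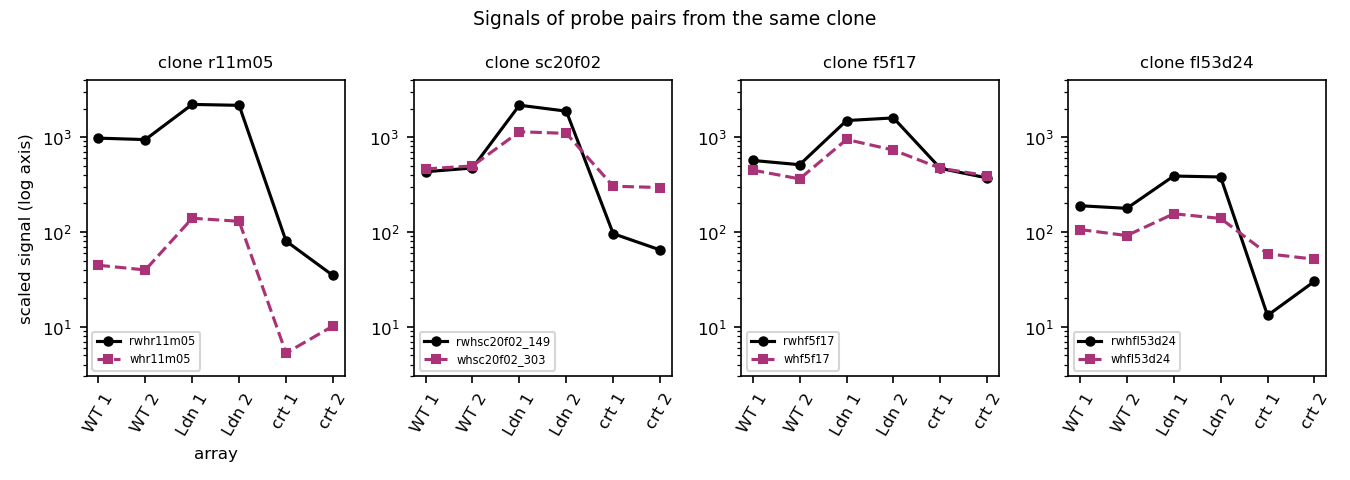
Scaled signal (log axis) on the 6 arrays of both probes of 4 clones, with a solid and a dashed line for the 2 probes. In the clones r11m05 and sc20f02 both probes were among the 96, and in the clones f5f17 and fl53d24 the probe with the solid line was, with the dashed partner 2.06-fold and 1.49-fold above WT in Ldn/KU-2025.

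The names of the probes give their source. Single-read EST clone probes whose names begin with r made up 18.8% of the 96 probes and 13.1% of all probes, and those without the leading letter 5.21% and 19.5%. Contigs of the wheat0130 assembly made up 41.7% of the 96 and 36.9% of all. On the array, the upper left part held 29.2% of the 96 probes, the upper right 26.0%, the lower left 27.1% and the lower right 17.7%, where each held 24.6% to 25.4% of all probes. There were 2 pairs on neighbouring spots, wheat0130Contig14041 with rwhh7k11 and wheat0130Contig2636 with wheat0130Contig2430, and 0 spots carried an outlier or saturation flag.

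The values next to each limit show how narrowly probes were taken or left. For the ratio to WT, MUGEST2003_23lib_Contig12418_m_944 (2.002) and wheat0130Contig7386 (2.006) were just inside, and MUG020D06R990620 (1.999) and wheat0130Contig8146 (1.993) just outside. For the signal limit, MUGEST2003_23lib_Contig14776_137 (66.0) and whoh21n10 (97.8) were inside, and wheat0130Contig3935 (59.8) and wheat0130Contig1479 (53.2) outside. For the limit on the higher crt/KU-2025 array relative to the higher WT array, rwhvs17b22_502 (0.959) and wheat0130Contig5689 (0.950) were inside, and MUGEST2003_23lib_Contig9722_788 (1.02) and wheat0130Contig3483 (1.03) outside.

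A linear model over all probes (limma, Benjamini-Hochberg adjusted p under 0.05 and at least 3-fold) called 20 of the 96 probes higher in Ldn/KU-2025 than in WT, beside 0.970% of all probes. Without the limit on the fold, 62 of the 96 passed, beside 6.34%, and 84 had an unadjusted p under 0.05, beside 17.1%. Of the 20, 13 were in the study's list. The count was 8 without WT replicate 1, 6 without WT replicate 2, 3 without Ldn/KU-2025 replicate 1 and 5 without Ldn/KU-2025 replicate 2, and it was 2 after normexp correction. The same model called 90 probes between the dwarf lines, with the lower level in crt/KU-2025, beside 9.98% of all probes. Against WT it called 42 as lower in crt/KU-2025, beside 11.0%. The 3 comparisons share their arrays, and all were used to choose the probes, so that nothing is read from these counts.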

How the data were processed

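The authors used the KOMUGI 38k array of wheat oligonucleotides with Cy3 as the single dye and deposited, per array, processed signal intensities that Feature Extraction had background-subtracted and spatially detrended (version 9.5 in the labels, 10.7.3.1 in the file headers), with raw spot and background medians. They also deposited an intensity table in which each array is multiplied by 2500 over its mean trimmed of 2% at each end. The probes were chosen on that table. Groups came from the sample labels.

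Here 1417 control spots per array were left out, the processed intensities were scaled in the same way, and log2 values were fitted with lmFit and eBayes (limma 3.58.1, R 4.3.3, 3 lines as groups, 6 arrays). The fit was tested on simulated data. Tables and figures were made with Python 3.11.15. Named probes are those with a named protein in the study's list, the 10 largest ratios of Ldn/KU-2025 to WT, the 5 highest levels and the probes next to each limit. Keyword classes were assigned from the descriptions. The probes and lists were chosen with earlier results of these data known. Alternatives were other scaling, normexp background correction (offset 50, then quantile normalization), other limits, another test and leaving out each array. Precision is limited by the 2 arrays per line.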

Additional observations from a re-analysis of the deposited data

How the results depend on the processing

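The conditions gave 42 probes, 36 of them among the 96, after normexp background correction and quantile normalization of the raw spot medians, 16 with a 3-fold limit and 208 where 1 crt/KU-2025 array could exceed WT. They gave 92 with scaling to the 75th percentile (81 shared), 92 after quantile normalization (82 shared), 94 with a signal limit of 100, and 105 to 210 with an array left out, the most without Ldn/KU-2025 replicate 2.

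The 20 probes called higher in Ldn/KU-2025 than in WT became 13 after quantile normalization, 2 after normexp, 62 with a 2-fold limit and 3 to 27 with an array left out. With the replicate number as a block there were 6. Replicate differences of same-numbered arrays correlated at -0.072, 0.034 and -0.057 over probes. These values gave no sign of pairing by number, but with 2 arrays per line they cannot exclude it. The block gave 90 and 41 calls for the other comparisons. The count of probes lower in crt/KU-2025 than in WT, 42, became 16 after normexp and 35 to 46 with an array left out, and that of probes lower than in Ldn/KU-2025, 90, stayed between 61 and 96 over all alternatives run. The cause of these changes was not tested. The ratios of Ldn/KU-2025 to WT of named probes shifted by up to 3.05 on the log2 scale with normexp and 0.58 with a WT array left out. The shift of 3.05 was at rwhf27h14, which was not above background in WT. Of 416 recomputed ratios, 0 were reversed. The choice of probes, including those just outside a limit, favours this direction, and nothing is read from it. Ratios of crt/KU-2025 were not recomputed for single probes. Slide as a block could not be fitted because slide 2 held only crt/KU-2025. The alternative that starts from the deposited scaled table was chosen after seeing the data and gave 20, 90 and 42 calls.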
